A study of Homo sapiens with 5 samples.

Results

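COL7A1 encodes the alpha chain of type VII collagen, and its introns were followed through 5 RNA-seq libraries in which the splicing factors WBP11 or SNW1 had been depleted or left in place. The members were every intron listed under the gene symbol COL7A1 (ENSG00000114270.14) in 3 tables of intron retention, each of which sets 1 depleted library against 1 control library. COL7A1 supplied 53 of 16629 introns in the WBP11 siRNA table, 67 of 24077 in the SNW1 siRNA table and 53 of 22471 in the WBP11 auxin table. Together these were 78 different introns of the 117 that the gene has, among 34560 different introns in all tables. The gene was selected on measured retention: many of its introns had higher values in these same depleted libraries, so all counts and differences below are descriptions, without a test. A chosen gene can stand out for that reason alone, and introns of 1 gene share their transcript and are not replicates.

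The cells were DLD-1, an established human colorectal adenocarcinoma line at fewer than 10 passages, and polyA RNA was sequenced. WBP11_RNAi and SNW1_RNAi are DLD-1 LacZeo cells given 100 nM WBP11 siRNA or SNW1 siRNA for 72 h, and Control is DLD-1 LacZeo with the treatment given as none. WBP11_Auxin and Control_Auxin are DLD-1 LacZeo osTIR1 cells under 500 µM auxin for 48 h. In the first of these, the series' design text places an AID-tagged WBP11 transgene in cells whose own WBP11 is knocked out. osTIR1 is a plant receptor that, when auxin is added, marks proteins with the AID degron for destruction, and it was present in both auxin libraries. The labels do not say whether Control received a non-targeting siRNA, and each group is 1 library. No degron line without auxin was analysed here, so loss of WBP11 and other differences between the lines cannot be told apart. The values of Control were the same in both siRNA tables at all 13412 introns that those tables share, so the siRNA comparisons have 1 control library in common.

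Type VII collagen forms the anchoring fibrils that fasten the basement membrane of stratified epithelia to the connective tissue below, and mutations of COL7A1 cause dystrophic epidermolysis bullosa, a blistering skin disease. Its long collagenous core of Gly-X-Y repeats is encoded by many small exons separated by small introns, so each mature transcript needs an unusually large number of splicing events. WBP11 is a spliceosome-associated protein, and SNW1, also called SKIP, is a component of the activated spliceosome. In intron retention, an intron stays in the polyadenylated transcript. Such a transcript often gains a premature stop codon.

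In GENCODE release 29 (GRCh38), COL7A1 lies on the minus strand of chromosome 3 from 48564073 to 48595267. The protein-coding transcript COL7A1-201 has 118 exons. Its 117 introns run from 70 to 1293 bp with a median of 119 bp, and 74 of them are at most 150 bp long. Of the 118 coding exons, 107 have a length that is a multiple of 3 and 78 a multiple of 9, which is the length of whole Gly-X-Y units. The counts cover all coding exons, so 78 is not the number of exons that encode Gly-X-Y repeats. Between codons lie 89 of the introns, and 27 follow the first base of a codon. Introns are numbered here in the direction of transcription by that transcript, and each listed COL7A1 intron matched 1 of them exactly.

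The letters of 5 introns could be read, because other annotated COL7A1 transcripts keep them as exon sequence in GENCODE release 29. Introns 92 and 97 are shown as introns with higher retention in every comparison in which they were tested, and introns 109 and 110 as introns that stayed below the threshold. For introns 92 and 97 the difference after auxin was within counting error, as given below. Capitals mark the 6 bases at the 5′ splice site and the 3 bases at the 3′ splice site.
Intron 92, chr3:48571161-48571242, minus strand: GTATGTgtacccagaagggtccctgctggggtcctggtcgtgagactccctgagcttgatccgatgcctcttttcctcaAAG
Intron 97, chr3:48570179-48570274, minus strand: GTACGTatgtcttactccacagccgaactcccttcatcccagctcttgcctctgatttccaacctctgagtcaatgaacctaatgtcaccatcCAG
Intron 109, chr3:48567024-48567127, minus strand: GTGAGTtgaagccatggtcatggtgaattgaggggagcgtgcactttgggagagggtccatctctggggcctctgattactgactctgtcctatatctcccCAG
Intron 110, chr3:48566738-48566906, minus strand: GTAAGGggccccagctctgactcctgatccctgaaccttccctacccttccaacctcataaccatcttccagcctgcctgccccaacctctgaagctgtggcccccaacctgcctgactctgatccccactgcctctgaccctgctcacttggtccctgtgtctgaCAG
Intron 91, the COL7A1 intron with the highest control retention in these tables among those tested, is 722 bp long (chr3:48571279-48572000), and its ends are given in lower case.
Intron 91, first 30 bases: gtgagtccggggcctaggcaagggcgagcc
Intron 91, last 30 bases: tctcaaatgctgtttgctgggttttcttag
All 5 begin with GT and end with AG. Introns 92 and 97 open with GTATGT and GTACGT, while introns 91 and 109 open with GTGAGT and intron 110 with GTAAGG. C or T filled 80% of the 20 bases ahead of the last 3 in intron 92, 55% in intron 97, 75% in intron 109, 65% in intron 110 and 70% in intron 91, so this stretch did not order the introns by retention. When read on from the upstream exon, intron 92 holds no stop codon in frame, and its length of 82 bp, not a multiple of 3, moves the frame of the exons after it. Intron 97 holds 1 stop codon in frame that starts at base 67, intron 109 has 1 at base 7, intron 110 has 4 and intron 91 has 7. With 5 introns these letters are a description only.

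The retention ratio of an intron is its read depth divided by the sum of that depth and the reads spliced across it, given here as a percentage as deposited; at some introns it departs from the deposited depth and counts. An intron was compared where depth plus spliced reads came to at least 10 in both libraries, and it was called higher or lower where the ratios differed by at least 10 percentage points. Brackets after a difference hold a 95% interval (Newcombe), which covers counting error only and takes the sum of depth and spliced reads as the observations. WBP11 itself had 20 spliced reads over its 2 listed introns in WBP11_RNAi and 312 in Control, or 6.75% of control relative to the table totals. SNW1 had 31 spliced reads in SNW1_RNAi and 401 in Control, or 10.2%. At the 1 WBP11 intron listed in the auxin table the counts were 103 in WBP11_Auxin and 235 in Control_Auxin, or 38.0%. Auxin acts on the WBP11 protein, so that count does not measure its depletion. Spliced reads summed over all listed introns came to between 2987572 and 5527186 per library and table, which is part of a library and not its depth. Of 14 fibroblast, endothelial and leukocyte marker genes, 0 had a listed intron in any table. Of 12 epithelial colorectal marker genes, 4 were listed in the WBP11 siRNA table, and 5 in each of the others. CDH1, CDH17, KRT18 and KRT19 were listed in all of them. A listed intron must reach 1% retention in at least 1 library, so an unlisted gene may still be expressed.

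COL7A1 introns with higher retention were found after WBP11 siRNA. Of the 29 tested introns, 16 (55.2%) were higher in WBP11_RNAi than in Control and 0 were lower. Over all 16068 tested introns of that table, 9.07% were higher and 1.69% were lower. Median COL7A1 retention was 13.3% in WBP11_RNAi and 2.50% in Control, against 2.78% in WBP11_RNAi and 2.20% in Control over all tested introns. The median difference was 12 percentage points, with quartiles of 4.12 and 20.7, while that of all tested introns was 0.756. For 12 of the 16 the counting interval also lay above 0, which is 41.4% of the tested COL7A1 introns against 7.08% of all. With at least 20 observations in both libraries, 4 of 10 (40.0%) were higher with a median difference of 7.5 points, and with at least 50, 0 of 1. Of all introns at those minimums, 7.83% and 6.84% were higher. Since the gene was chosen for this contrast, nothing is read from these shares. A further 24 listed introns were not tested, each because WBP11_RNAi gave fewer than 10 observations.

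SNW1 siRNA gave the largest number of higher COL7A1 introns of the 3 comparisons, and also the most that could be tested. Of 58 tested introns, 41 (70.7%) were higher in SNW1_RNAi than in Control and 0 were lower, where 16.6% of all 23366 tested introns were higher and 0.359% were lower. Median COL7A1 retention was 21.3% in SNW1_RNAi and 2.68% in Control, against 4.25% in SNW1_RNAi and 1.24% in Control over all tested introns. The median difference was 18.8 points with quartiles of 8.67 and 31.1, and 2.63 points over all introns. With the counting interval also above 0 there were 38, or 65.5%, against 13.8% of all introns. Not tested were 9 listed COL7A1 introns, for too few reads in SNW1_RNAi.

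Auxin depletion of WBP11, in a different line with its own control, also came with higher COL7A1 retention at most tested introns. Of 42 tested introns, 27 (64.3%) were higher in WBP11_Auxin than in Control_Auxin and 0 were lower, where 13.8% of all 21828 tested introns were higher and 1.37% were lower. Median COL7A1 retention was 21.1% in WBP11_Auxin and 2.46% in Control_Auxin, against 3.84% in WBP11_Auxin and 2.13% in Control_Auxin over all tested introns. The median difference was 14.4 points with quartiles of 7.37 and 22.1, and 1.45 points over all introns. With the counting interval also above 0 there were 20, or 47.6%, against 11.4% of all introns. Without the introns that carry an IRFinder warning in either library, 5 of 15 (33.3%) were higher in WBP11_Auxin, with a median difference of 7.30 points. Of all introns without a warning, 15.9% were higher there. Not tested were 11 listed introns, for too few reads in WBP11_Auxin.

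**Figure D1:**
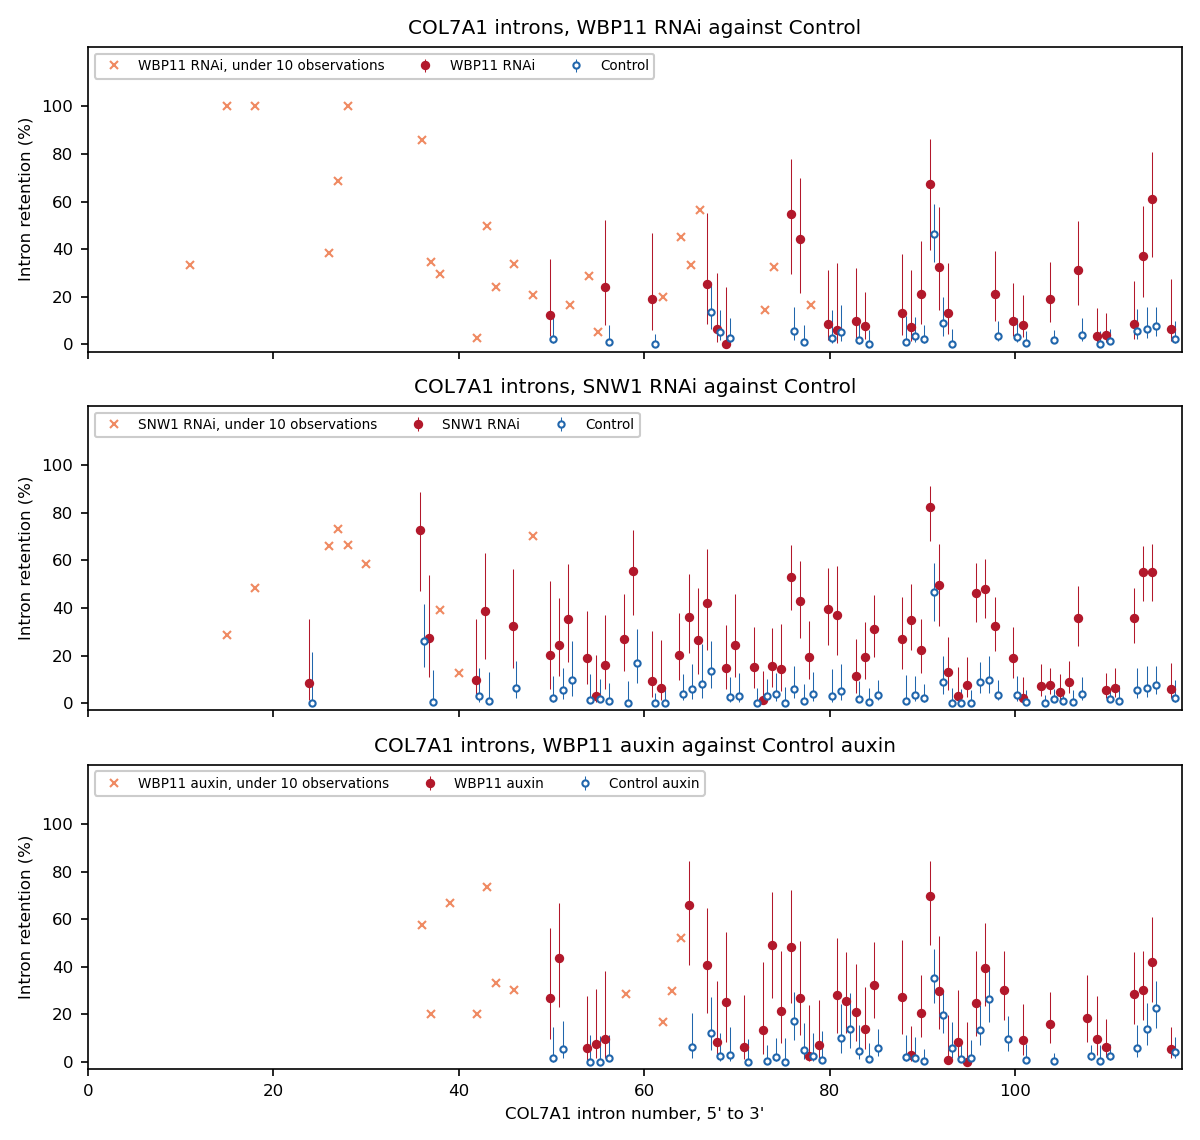
Retention of each listed COL7A1 intron (y axis, %) against its number along the gene (x axis), with 1 panel per comparison. Filled red points are the depleted library and open blue points the control library of the tested introns, with 95% Wilson intervals that cover counting error only, and orange crosses are depleted-library values on fewer than 10 observations. Control points mostly lie near 0, with intron 91 the highest at 46.5% in Control and 35.5% in Control_Auxin, and most red points lie above the blue ones.

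By the number of higher introns, COL7A1 stood second of 5724 genes with a tested intron in the WBP11 siRNA table, after NBEAL2 with 18 of 30. It stood first of 6965 genes in the SNW1 siRNA table and first of 6788 in the auxin table, where NBEAL2 followed with 20 of 37 and 16 of 35. A gene with many introns can reach a high number more easily. By share among genes with at least 10 tested introns, COL7A1 ranked 8 of 189 after WBP11 siRNA, 14 of 369 after SNW1 siRNA and 5 of 279 after auxin.

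Short introns and introns with few reads were called more often in every table, and COL7A1 introns are mostly short and thinly covered. Among all tested introns of at most 150 bp, 15.5% were higher after WBP11 siRNA, 24.6% after SNW1 siRNA and 30% after auxin. Among introns no deeper than the deepest COL7A1 intron in either library, 16.4%, 22% and 20.1% were higher in those comparisons. The COL7A1 shares of 55.2%, 70.7% and 64.3% stood above each of these. The gene was chosen for higher retention in these libraries, so nothing is read from that order. Median depth plus spliced reads at tested COL7A1 introns was 16.4 in WBP11_RNAi and 59.0 in Control, 31.5 in SNW1_RNAi and 56.0 in Control, and 18.5 in WBP11_Auxin and 50.9 in Control_Auxin. The depth class was capped at the deepest COL7A1 intron and not matched to these medians. The part of low depth in the differences was not tested beyond these classes.

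**Figure D2:**
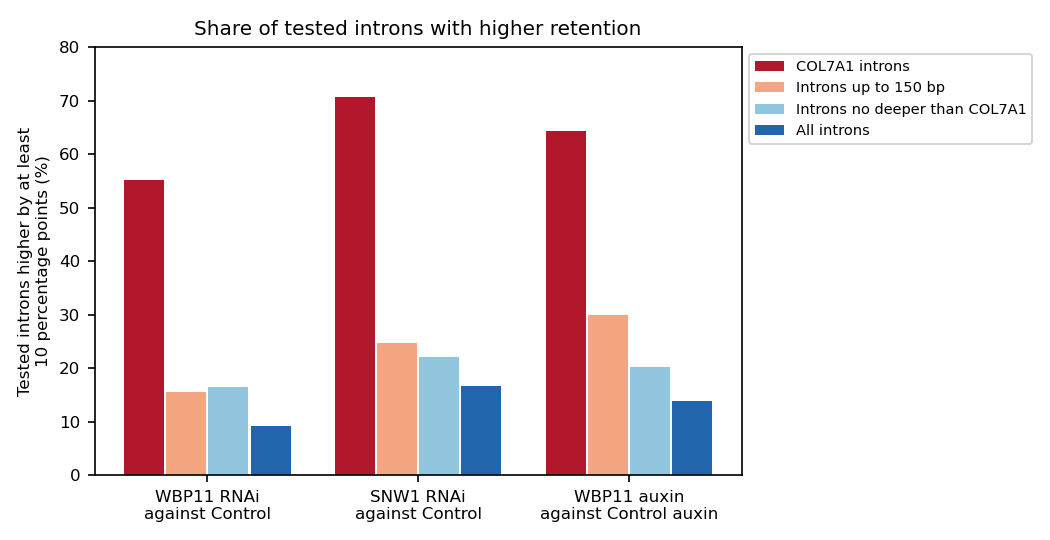
Share of tested introns that were higher by at least 10 percentage points (y axis, %) in each comparison (x axis). Bars stand for COL7A1 introns, introns of at most 150 bp, introns no deeper than the deepest COL7A1 intron in either library, and all introns; the COL7A1 bars reach 55.2%, 70.7% and 64.3%.

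The introns with the 5 largest differences in each comparison ran from 72 to 722 bp in length, and intron 76 was among them in all 3 comparisons. Intron 76 (48574722 to 48574796, 75 bp) was retained at 55.0% in WBP11_RNAi, 53.0% in SNW1_RNAi and 5.77% in Control. In the auxin pair intron 76 had 48.2% in WBP11_Auxin and 17.0% in Control_Auxin. Every depleted library was thus above both controls, by 49.2 points [21.9, 72.6], 47.2 points [30.1, 61.3] and 31.1 points [4.91, 56.4] in its own comparison. Recomputed from depth and spliced reads, the auxin difference was 45.6 points. That depth was 8.37 in WBP11_Auxin and 9.04 in Control_Auxin, with 5 and 44 spliced reads. The next intron, 77 (48574551 to 48574676, 126 bp), had 44.4% in WBP11_RNAi, 42.8% in SNW1_RNAi and 0.917% in Control. It had 26.7% in WBP11_Auxin and 4.82% in Control_Auxin, so here too each depleted value was above both control values. The differences were 43.5 points [19.6, 68.8], 41.9 points [24.7, 59.0] and 21.9 points [2.60, 46.4], each from single libraries.

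Near the 3′ end, introns 114 and 115 formed a second such pair. Intron 114 (48565497 to 48565635, 139 bp) had 37.0% in WBP11_RNAi, 54.9% in SNW1_RNAi and 6.5% in Control. It had 30.2% in WBP11_Auxin and 13.7% in Control_Auxin. Its auxin difference of 16.5 points [-0.225, 34.4] was within counting error, whereas the siRNA differences of 30.5 [11, 52.1] and 48.4 points [33.5, 60.4] were not. Intron 115 (48565202 to 48565409, 208 bp) had 61.1% in WBP11_RNAi, 55.2% in SNW1_RNAi and 7.76% in Control. Behind the WBP11_RNAi value stood a depth of 11 and 4 spliced reads, against a depth of 6.47 and 77 spliced reads in Control. The libraries thus differed more in spliced reads than in depth at this intron. Recomputed from those values, the WBP11 siRNA difference was 65.6 points in place of the 53.4 [27.8, 73.6] of the deposited ratios. Intron 115 had 42.1% in WBP11_Auxin and 22.8% in Control_Auxin, a difference of 19.3 points [-0.951, 40.0]. Its depth was 11.6 in WBP11_Auxin and 15.6 in Control_Auxin, with 14 and 52 spliced reads.

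Intron 91 was partly retained in control cells as well. It had 67.2% in WBP11_RNAi, 82.6% in SNW1_RNAi and 46.5% in Control, and 69.6% in WBP11_Auxin against 35.5% in Control_Auxin. The differences were 20.7 [-9.45, 43.4], 36.0 [17.0, 50.9] and 34.1 points [10.4, 52.3]. Unscaled depth within intron 91 was lower than control in both WBP11 comparisons. It was 8.21 in WBP11_RNAi, 33.2 in SNW1_RNAi and 27.8 in Control, and 16.0 in WBP11_Auxin and 23.1 in Control_Auxin. Spliced reads were 4 in WBP11_RNAi, 7 in SNW1_RNAi and 32 in Control, and 7 in WBP11_Auxin and 42 in Control_Auxin. The short protein-coding transcript COL7A1-202 starts at 48571626, within this intron, and the annotated retained-intron transcript COL7A1-210 keeps all of it, and the part of their reads in this depth was not tested. Intron 92, which follows it, had 32.6% in WBP11_RNAi, 49.6% in SNW1_RNAi and 8.85% in Control, and 30.0% in WBP11_Auxin against 19.7% in Control_Auxin. Its auxin difference of 10.3 points [-8.95, 34.6] was the smallest among the COL7A1 introns that counted as higher there. Depth at intron 92 was 6 in WBP11_Auxin and 14.0 in Control_Auxin, with 12 and 57 spliced reads.

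By the naming rule, introns 50, 67, 88 and 90 complete the 10 that were higher in all 3 comparisons, of 22 tested in all 3. Intron 50 had 12.5% in WBP11_RNAi, 20.4% in SNW1_RNAi and 2.17% in Control, with 26.9% in WBP11_Auxin and 1.70% in Control_Auxin. Intron 67 had 25.4% in WBP11_RNAi, 42.1% in SNW1_RNAi and 13.5% in Control, with 40.8% in WBP11_Auxin and 12.1% in Control_Auxin. In both introns WBP11_RNAi was the lowest of the depleted libraries, and its difference was within counting error. Depth at intron 67 was 2.73 in WBP11_RNAi and 6.07 in Control, with 8 and 39 spliced reads. Intron 88 had 13.3% in WBP11_RNAi, 27.0% in SNW1_RNAi and 1.11% in Control, with 27.2% in WBP11_Auxin and 2.17% in Control_Auxin. Its WBP11 siRNA difference of 12.2 points [-2.10, 36.8] was within counting error too. Intron 90 had 21.1% in WBP11_RNAi, 22.2% in SNW1_RNAi and 2.13% in Control, with 20.8% in WBP11_Auxin and 0.209% in Control_Auxin. Intron 90 stood out among the 10 for nearly equal depleted values. Of the 10, only introns 76, 77 and 90 had the counting interval above 0 in all 3 comparisons. The siRNA comparisons share Control, so the count of 10 is no separate support. A matching share over all introns tested in all 3 comparisons was not computed.

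**Figure D3:**
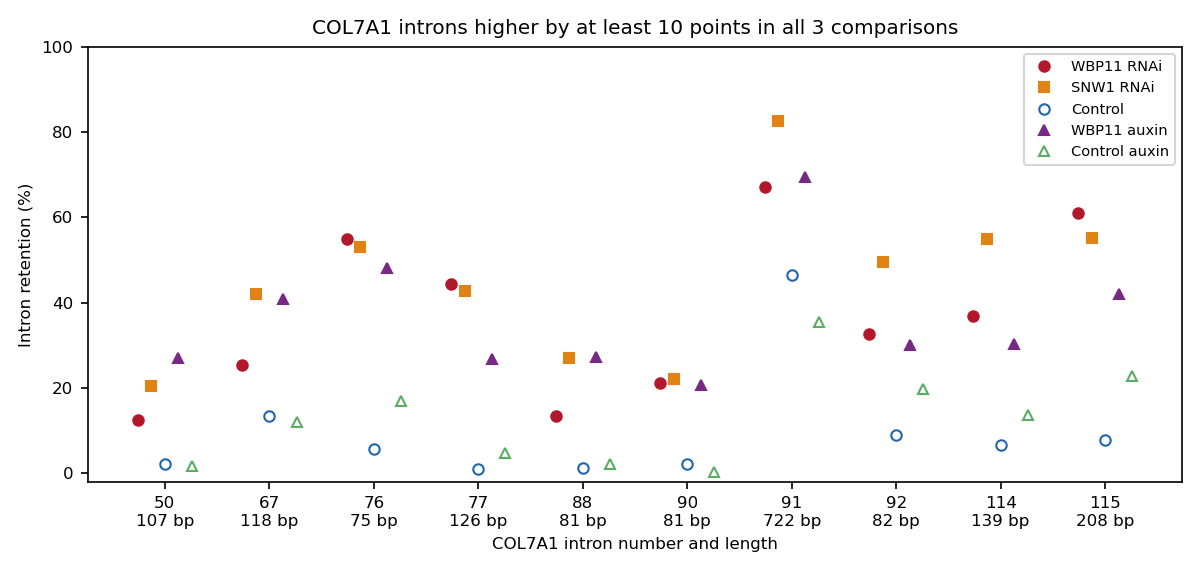
Retention (y axis, %) of the 10 COL7A1 introns that were higher in all 3 comparisons, by intron number and length (x axis). Each point is 1 library; filled symbols are depleted and open symbols control, and at every intron each depleted library lies above its own control, with intron 91 the highest in every library.

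Other large differences belonged to introns tested in fewer tables or higher in fewer libraries. In WBP11_Auxin intron 65 (48576920 to 48576991, 72 bp) had 66.1%, against 6.45% in Control_Auxin, the largest difference of a tested COL7A1 intron in that table at 59.6 points [30.7, 78.7]. The same intron had 36.1% in SNW1_RNAi and 5.80% in Control, and WBP11_RNAi was below the minimum. Intron 74 (48575127 to 48575206, 80 bp) had 49.0% in WBP11_Auxin and 1.89% in Control_Auxin, against 15.5% in SNW1_RNAi and 3.70% in Control. The SNW1 difference there, 11.8 points [-0.590, 28.2], was the smallest among the COL7A1 introns counted as higher there. Intron 51 (48581158 to 48581259, 102 bp) had 43.8% in WBP11_Auxin and 5.51% in Control_Auxin, with 24.3% in SNW1_RNAi and 5.42% in Control. Intron 107 (48567637 to 48567709, 73 bp) had 31.5% in WBP11_RNAi, 35.7% in SNW1_RNAi and 3.87% in Control, and both differences lay above counting error. Intron 36 (48584062 to 48584297, 236 bp) had 72.6% in SNW1_RNAi and 26.3% in Control, a difference of 46.3 points [16.5, 66.0]. Its depth was 10.6 in SNW1_RNAi and 10.3 in Control, with 4 and 29 spliced reads. Intron 97, whose letters are given above, had 48.1% in SNW1_RNAi and 9.57% in Control, and 39.5% in WBP11_Auxin and 26.5% in Control_Auxin. Its SNW1 difference was 38.5 points [22.4, 52.2]. The auxin difference of 13.0 points [-7.64, 34.2] was within counting error, and the intron carried an IRFinder warning in WBP11_Auxin.

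Introns that stayed below the threshold lay among the higher ones. Of the 65 introns tested in at least 1 table, 48 were higher in at least 1 and 17 in none. Counts of this kind over all introns were not made. Intron 110 (169 bp) had 3.85% in WBP11_RNAi, 5.34% in SNW1_RNAi and 1.55% in Control, and 6.26% in WBP11_Auxin against 2.34% in Control_Auxin. Intron 109 (104 bp) had 3.62% in WBP11_RNAi and 0.246% in Control, and 9.52% in WBP11_Auxin and 0.520% in Control_Auxin. The auxin difference of 9.0 points lay just under the threshold. The last intron, 117 (48564423 to 48564782, 360 bp), had 6.5% in WBP11_RNAi, 6.02% in SNW1_RNAi and 2.37% in Control, and 5.36% in WBP11_Auxin against 4.17% in Control_Auxin.

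The smallest differences were within counting error in each table. After WBP11 siRNA, intron 69 had 0% in WBP11_RNAi on 12 spliced reads and 2.50% in Control, intron 81 had 5.86% in WBP11_RNAi and 5.16% in Control, and intron 68 had 6.67% in WBP11_RNAi and 5.17% in Control. After SNW1 siRNA, intron 73 had 1.34% in SNW1_RNAi and 2.90% in Control, intron 55 had 3.09% in SNW1_RNAi and 1.92% in Control, and the intron after intron 100 had 2.08% in SNW1_RNAi and 0.423% in Control. After auxin, intron 93 had 0.718% in WBP11_Auxin and 5.70% in Control_Auxin, intron 95 had 0.0822% in WBP11_Auxin and 1.72% in Control_Auxin, and intron 78 had 2.69% in WBP11_Auxin and 2.38% in Control_Auxin. Such an intron could be higher elsewhere: intron 69 had 14.7% in SNW1_RNAi and 25% in WBP11_Auxin, and intron 93 had 13.3% in WBP11_RNAi and 12.9% in SNW1_RNAi against 0% in Control. The 0% in Control at intron 93 stood on 56 spliced reads, which allow up to 5.36%. Just under the threshold were intron 83 after WBP11 siRNA (8.03 points) and after SNW1 siRNA (9.63 points), and just above it intron 50 after WBP11 siRNA (10.3 points).

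Reads spliced across COL7A1 introns were fewer in every depleted library. Summed over the 53 listed introns, WBP11_RNAi had 578 spliced reads and Control 2556, which is 23.8% of control (95% exact binomial interval 21.7 to 26.1) relative to the table totals. WBP11_RNAi had fewer at 53 of the 53. In SNW1_RNAi the 67 listed introns had 1633 spliced reads against 3393 in Control, or 63.8% (60.1 to 67.7), with fewer at 66 of them. In WBP11_Auxin the 53 introns had 776 against 2365 in Control_Auxin, or 28.5% (26.2 to 30.9), with fewer at 53. Unlike the percentages, these counts of introns are unscaled, and they were not made over all introns. The totals in the SNW1 siRNA comparison were 4170988 in SNW1_RNAi and 5527186 in Control. Among genes with at least 10 listed introns, COL7A1 had the 8th lowest ratio of 198 after WBP11 siRNA, the 69th lowest of 378 after SNW1 siRNA and the 6th lowest of 287 after auxin. The median gene of those had 75.4%, 108% and 89.4% of control in the same order. The intervals cover counting error only, and in bulk RNA a smaller number of expressing cells and less RNA per cell cannot be told apart.

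Summed read depth within COL7A1 introns was not lower in the depleted libraries. Summed intron depth was 158 in WBP11_RNAi and 120 in Control, which is 138% of control relative to the table totals, and 36 of 53 introns were deeper. It was 570 in SNW1_RNAi and 146 in Control, or 517%, and 65 of 67 were deeper. It was 236 in WBP11_Auxin and 168 in Control_Auxin, or 122%, and 39 of 53 were deeper. The counts of deeper introns are unscaled, and the same depth sums and counts over all introns were not made. Median retention over all tested introns was also higher in SNW1_RNAi, at 4.25% against 1.24% in Control. An intron with little depth in the control can be listed because it reached 1% in the depleted library alone. The part of this listing rule in the depth differences was not tested. In both WBP11 comparisons the gap in spliced reads was wider than that in depth, and after SNW1 siRNA the gap in depth was the wider one. Over the 35 introns listed in all tables, spliced reads were 413 in WBP11_RNAi, 891 in SNW1_RNAi and 1869 in Control, and 523 in WBP11_Auxin against 1587 in Control_Auxin. Depth over the same introns was 110 in WBP11_RNAi, 331 in SNW1_RNAi and 98.3 in Control, and 162 in WBP11_Auxin against 120 in Control_Auxin.

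**Figure D4:**
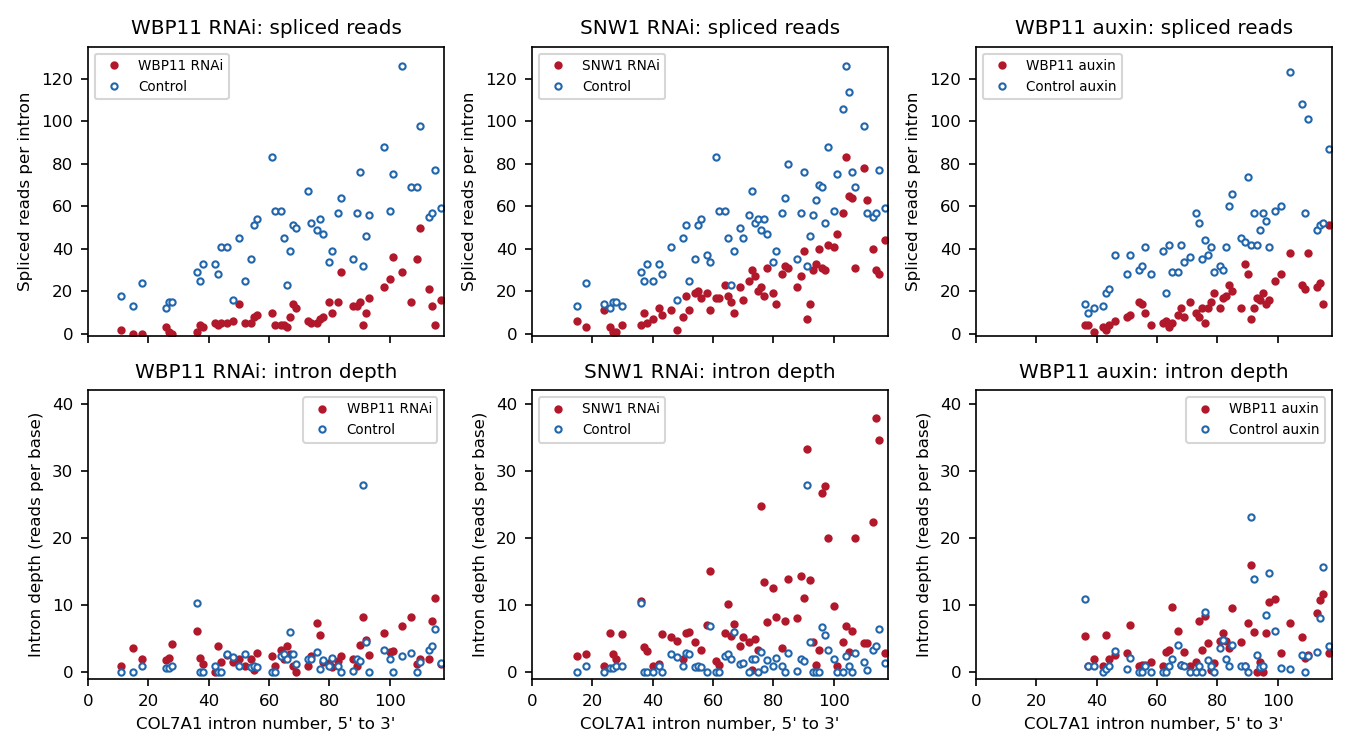
Spliced reads per COL7A1 intron (upper row) and deposited intron depth in reads per base (lower row) against intron number (x axis), for the 3 comparisons from left to right. Filled red points are the depleted library and open blue points the control, neither scaled for library size; spliced reads lie lower in the depleted library at 53 of 53, 66 of 67 and 53 of 53 introns, and the red depth points of SNW1_RNAi reach 37.8.

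Reads grew denser towards the 3′ end of the gene in every library, so the 5′ part of COL7A1 was seen poorly. Introns 1 to 39 gave 0 tested introns after WBP11 siRNA, 3 after SNW1 siRNA and 0 after auxin. Median spliced reads per listed intron were 1 over introns 1 to 39, 5 over introns 40 to 78 and 15 over introns 79 to 117 in WBP11_RNAi, and 18, 47 and 58 in Control. The first listed intron was 11 in the WBP11 siRNA table, 15 in the SNW1 siRNA table and 36 in the auxin table, each untested. Introns 40 to 78 had 6 higher of 8 tested after WBP11 siRNA, 21 of 26 after SNW1 siRNA and 10 of 16 after auxin. Introns 79 to 117 had 10 of 21, 18 of 29 and 17 of 26 in those comparisons. Unscaled spliced reads in WBP11_RNAi were 7.61% of Control over introns 1 to 39, 14.9% over introns 40 to 78 and 30.7% over introns 79 to 117. SNW1_RNAi had 24.9%, 37.8% and 57.1%, and WBP11_Auxin had 25%, 24.3% and 37.6% of its control. Whether RNA quality differed between the libraries was not tested. The tables hold introns that reached 1% in at least 1 of their libraries and were free of warnings in at least 1, and the 39 COL7A1 introns in no table are not analysed here.

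Among COL7A1 introns, higher retention was not limited to the shortest. At most 80 bp long were 4 tested introns after WBP11 siRNA, of which 2 were higher, 11 with 8 higher after SNW1 siRNA and 5 with 5 higher after auxin. All tested introns of that length in the tables were higher in 24.3%, 43.0% and 64.7%. Over 150 and up to 500 bp, 5 of 8, 12 of 21 and 5 of 13 COL7A1 introns were higher, against 12.4%, 23.8% and 12.5% of all introns. Over 500 bp, 1 of 2, 3 of 3 and 2 of 2 were higher, against 3.28%, 8.70% and 6.03%. COL7A1 introns exceeded the share of all introns in each length class of each table, with few introns in several classes. As the gene was chosen for higher retention, nothing is read from that either. Introns whose length is a multiple of 3 were higher at 6 of 10 after WBP11 siRNA, 19 of 28 after SNW1 siRNA and 12 of 17 after auxin, and the others at 10 of 19, 22 of 30 and 15 of 25. The exon upstream of the intron ended in G at 12 of 16 higher and 13 of 13 other tested introns after WBP11 siRNA, at 34 of 41 and 15 of 17 after SNW1 siRNA, and at 23 of 27 and 14 of 15 after auxin.

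**Figure D5:**
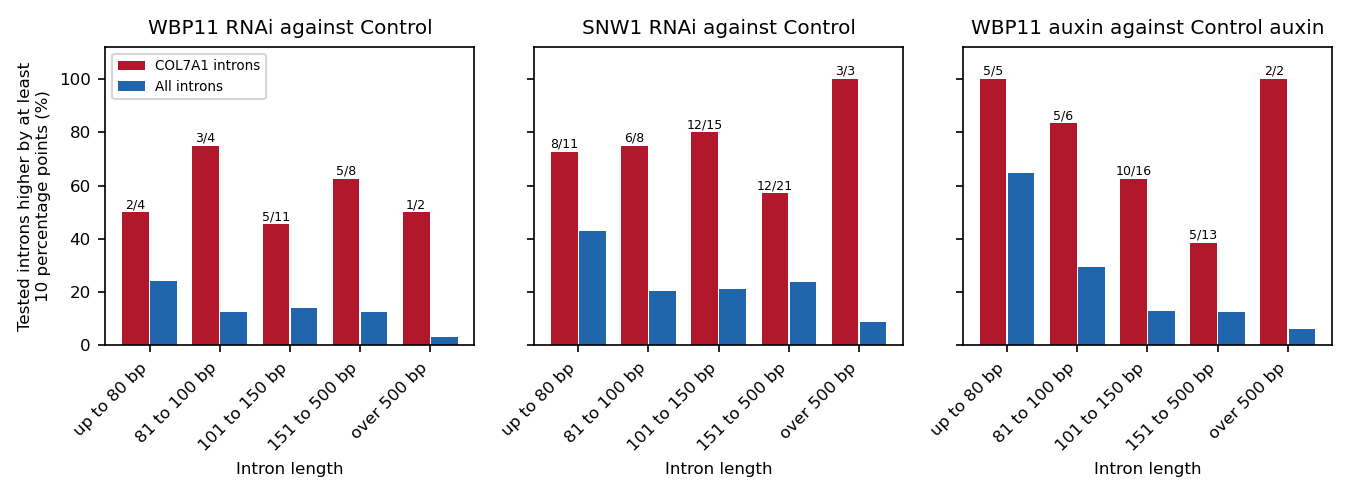
Share of tested introns higher by at least 10 points (y axis, %) by intron length class (x axis) for COL7A1 and for all introns, with 1 panel per comparison. The figures over the COL7A1 bars are introns higher over introns tested; the COL7A1 bar is the taller in each class, and several bars stand on fewer than 5 introns.

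Set side by side at 27 introns tested in both siRNA tables, median COL7A1 retention was 27.0% in SNW1_RNAi, 13.3% in WBP11_RNAi and 2.50% in their shared Control. SNW1_RNAi was above WBP11_RNAi at 18 of them, by at least 10 points at 12, and WBP11_RNAi was above by at least 10 points at 1. The same counts over all introns were not made. Over all tested introns the median difference from Control was also larger after SNW1 siRNA, at 2.63 points against 0.756 after WBP11 siRNA. Over the 22 introns tested in all tables the medians were 13.3% in WBP11_RNAi, 24.6% in SNW1_RNAi and 2.27% in Control, and 25.9% in WBP11_Auxin against 4.41% in Control_Auxin. Across 35 introns, the SNW1 siRNA and WBP11 auxin differences, which share no library, had a Pearson correlation of 0.33 and a Spearman correlation of 0.41. Across 24 introns, the WBP11 siRNA and WBP11 auxin differences had 0.37 and 0.30. The introns share gene, read density and counting noise, so these weak values are a description. Between the controls, 46 introns had a median of 2.60% in Control_Auxin and 2.44% in Control. Control_Auxin was higher by at least 10 points at 5 of them and lower at 1, and the share over all introns was not computed.

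A microRNA gene, MIR711, overlaps exon 62 of COL7A1 and the edges of the introns on either side. The hairpin is given from RefSeq (GRCh38.p14, chr3:48578902-48578977, minus strand), with the 36 bases of exon 62 in capitals, because it shows how the tables measured these introns.
MIR711 hairpin: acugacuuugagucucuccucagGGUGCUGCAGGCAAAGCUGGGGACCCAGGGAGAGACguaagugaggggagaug
Mature hsa-miR-711, seed in capitals: gGGACCCAgggagagacguaag
Of the hairpin, 23 bases lie in intron 61 and 17 in intron 62, and the 22-base mature form has 17 bases in exon 62 and 5 in intron 62. The tables leave 33 bases of intron 61 and 27 of intron 62 out of the depth, which is 10 for the intron ends, as in most COL7A1 introns, plus as many as the hairpin covers. Hairpin bases therefore did not enter the retention values. Intron 61 (48578955 to 48579196, 242 bp) had 19.2% in WBP11_RNAi, 9.40% in SNW1_RNAi and 0% in Control, where 83 spliced reads allow up to 3.61%. Intron 62 (48578516 to 48578918, 403 bp) had 6.34% in SNW1_RNAi and 0.0270% in Control, and it was below the minimum in WBP11_RNAi and WBP11_Auxin. The level of the microRNA was not measured.

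Other collagen genes with listed introns were few in these cells. COL16A1, COL17A1 and COL6A1 were listed in every table, with COL13A1 or COL5A2 added in 1 table each. Of their tested introns 0 of 24 were higher after WBP11 siRNA, 3 of 23 after SNW1 siRNA and 3 of 29 after auxin, with 0 lower in each. These shares of 0%, 13.0% and 10.3% were below the 9.07%, 16.6% and 13.8% of all tested introns, and the median differences were 1.93, 3.92 and 2.57 points, beside 0.756, 2.63 and 1.45 over all. COL17A1, a transmembrane collagen of hemidesmosomes, had an intron at 89.2% in SNW1_RNAi and 55.9% in Control, which overlaps an annotated exon. Another COL17A1 intron had 20.2% in WBP11_Auxin and 0% in Control_Auxin, where it had 27 observations. COL16A1, a fibril-associated collagen, had an intron at 48.7% in WBP11_Auxin and 0% in Control_Auxin on 12 observations, and 1 at 15.2% in SNW1_RNAi and 2.66% in Control. Spliced reads of COL17A1 were 553 in WBP11_RNAi and 552 in Control, and 1534 in WBP11_Auxin and 426 in Control_Auxin, the opposite direction to COL7A1 in the auxin pair.

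Genes that modify and export collagen had 2 of 28 tested introns higher after WBP11 siRNA, 5 of 44 after SNW1 siRNA and 5 of 44 after auxin, with 2 lower in the last comparison. These shares of 7.14%, 11.4% and 11.4% were below those of all tested introns (9.07%, 16.6% and 13.8%). Their median differences were 1.29, 2.31 and 1.40 points, beside 0.756, 2.63 and 1.45 over all introns. PLOD3, a lysyl hydroxylase with glycosyltransferase activity, had an intron at 13.4% in WBP11_RNAi and 1.33% in Control, and another at 28.2% in WBP11_Auxin and 12.6% in Control_Auxin. P3H1, a prolyl hydroxylase, had an intron at 32.1% in WBP11_RNAi and 22.0% in Control that was lower after auxin, with 7.88% in WBP11_Auxin and 28.1% in Control_Auxin. The WBP11 siRNA difference of 10.1 points [-0.401, 21.1] was within counting error, and the auxin difference of -20.2 points [-28.3, -11.8] was not. MIA3, known as TANGO1, loads type VII collagen into carriers at the endoplasmic reticulum. One of its introns had 57.9% in WBP11_Auxin and 1.56% in Control_Auxin, and another 23.9% in SNW1_RNAi and 11.6% in Control. PCOLCE, an enhancer of procollagen cleavage, had 27.7% in SNW1_RNAi and 14.8% in Control, and 65.0% in WBP11_Auxin and 38.5% in Control_Auxin. Its SNW1 siRNA difference of 12.8 points [-5.49, 35.7] was within counting error, and its auxin difference of 26.5 points [0.898, 47.9] was not.

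Genes of epithelial anchorage to the basement membrane had 4 of 46, 5 of 70 and 9 of 65 tested introns higher after WBP11 siRNA, SNW1 siRNA and auxin, with 0 lower and medians of 1.69, 2.11 and 2.59 points. These shares of 8.70%, 7.14% and 13.8% were at or below the 9.07%, 16.6% and 13.8% of all tested introns, so the introns named next are single cases. In ITGA3, an integrin alpha chain, a 72 bp intron that overlaps an annotated exon had 22.6% in WBP11_RNAi, 22.7% in SNW1_RNAi and 4.39% in Control, and 73.4% in WBP11_Auxin against 8.02% in Control_Auxin. PLEC, the hemidesmosome linker plectin, had an intron at 27.5% in SNW1_RNAi and 5.53% in Control, and at 39.9% in WBP11_Auxin and 4.53% in Control_Auxin. LAMA3, a chain of laminin 332, had 82.7% in WBP11_Auxin and 28.5% in Control_Auxin. FERMT1, kindlin-1, had 22.5% in WBP11_RNAi and 5.91% in Control, and CD151, a tetraspanin, had 24.6% in SNW1_RNAi and 7.90% in Control.

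Genes beside COL7A1 on chromosome 3 had 10 of 28 tested introns higher and 2 lower after WBP11 siRNA, 15 of 36 higher after SNW1 siRNA, and 7 of 38 higher and 2 lower after auxin. These shares were 35.7%, 41.7% and 18.4%, beside 9.07%, 16.6% and 13.8% of all tested introns. Their medians were 3.77, 7.51 and 0.760 points, beside 0.756, 2.63 and 1.45 over all. SLC26A6, an anion exchanger, had an intron at 61.1% in WBP11_RNAi, 59.7% in SNW1_RNAi and 20.3% in Control, and another at 64.6% in WBP11_Auxin and 12% in Control_Auxin. CELSR3, a cadherin of planar polarity, had an intron at 34.8% in WBP11_RNAi, 38.6% in SNW1_RNAi and 14.3% in Control, on fewer than 20 observations in each. In the auxin pair 1 CELSR3 intron had 51.8% in WBP11_Auxin and 29.1% in Control_Auxin, and another was lower at 1.60% in WBP11_Auxin and 12.3% in Control_Auxin. ATRIP, a partner of the ATR kinase, had an intron at 22.4% in both WBP11_RNAi and SNW1_RNAi and 4.17% in Control, and another that was lower at 2.24% in WBP11_RNAi and 22.0% in Control. All of these CELSR3 and ATRIP differences were within counting error. The falls were -10.7 points [-39.1, 7.67] in CELSR3 and -19.7 points [-42.0, 0.331] in ATRIP. ATRIP shares annotated exons with TREX1 on the same strand, so reads cannot be fully divided between them.

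The genes most like COL7A1 were sought among 143 others with at least 10 tested introns in each table, by the mean absolute difference in median retention over the 6 library columns of the tables (5 libraries). TUBGCP6 was nearest with a distance of 2.22 points, followed by MAP3K6 with 2.44, ACAP3 with 2.69, DGKQ with 3.02 and PLXNA3 with 3.04. TUBGCP6 had medians of 7.90% in WBP11_RNAi, 15.1% in SNW1_RNAi and 21.8% in WBP11_Auxin. Of these 144 genes, COL7A1 ranked 18 from the highest for the median in WBP11_RNAi, 11 in SNW1_RNAi and 13 in WBP11_Auxin. In the control columns it ranked 74 in the WBP11 siRNA table, 50 in the SNW1 siRNA table and 98 in the auxin table. Each control rank was thus further from the highest than the depleted rank of the same table.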

How the data were processed

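DLD-1 polyA RNA was sequenced in 5 libraries, 1 per group. Per the file headers, the 3 deposited tables were written by IRFinder, which compared a depleted with a control library after STAR alignment to hg38. RSEM and bedtools are named in the submitters' processing notes, without versions. Per the file headers, retention is deposited as a fraction. Intron depth is a coverage signal as the authors deposited it, over the bases IRFinder measures, and spliced reads are a deposited count per intron. No value was scaled between libraries. Deposited p-values were not used. The deposited ratio equals depth over depth plus spliced reads within 0.001 for most COL7A1 values, and not at 8, 8 and 11 values of the depleted libraries and 12, 16 and 16 of the controls (WBP11 siRNA, SNW1 siRNA, auxin), by up to 14.4 points.

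Ratios were compared over each whole table with pandas 2.3.3, numpy 2.4.6 and scipy 1.17.1 (Python 3.11.15; figures by matplotlib 3.10.9). An intron needed 10 observations in both libraries, and a difference of 10 percentage points was called. No test across libraries is possible with 1 per group. Wilson and Newcombe intervals (95%) and limits for a count of 0 (3 counts) cover counting error only. The calling was tested on simulated data. Reads of overlapping transcripts count as retention in IRFinder's depth. The spliced reads limit precision: tested COL7A1 introns had a median of 16.4 to 31.5 observations in depleted libraries.

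The gene, the gene lists and the thresholds were chosen with earlier results of these data known. Introns named with values are, in each table, the 5 that rose most, the 3 that differed least or were furthest below control, those higher in all 3 tables, and the first and last listed. Introns 61, 62, 97, 109 and 110 were added for their sequence. From each gene list, the 3 largest rises and the largest fall past the threshold are named, at most 1 per gene. Alternatives changed the threshold, the depth minimum, the introns kept, the calling rule and the scaling.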

Additional observations from a re-analysis of the deposited data

How the results depend on the processing

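The median difference over COL7A1 introns stayed above 0 under each alternative run. Named introns were recomputed under other forms of the ratio only: all 94 values under a recomputed ratio (depth over depth plus spliced or plus exactly spliced reads, chosen after seeing the data) stayed on their side of the threshold. Of the 63 other counts and medians, 39 stayed close (medians within the counting error of the gene-wide difference, counts within 1.5 times), such as 21, 51 and 36 with 5 points, 12, 38 and 20 with the interval above 0 and 21, 55 and 31 by log2 ratio (WBP11 siRNA, SNW1 siRNA, auxin). Of all introns, 17.4%, 32.2% and 24.7% were higher with 5 points, and 27.5%, 57.4% and 36.0% by log2 ratio.
With a difference of at least 20 points, 8, 27 and 15 COL7A1 introns were higher after WBP11 siRNA, SNW1 siRNA and auxin. That is 27.6%, 46.6% and 35.7% of those tested, beside 3.53%, 6.49% and 6.38% of all introns. Introns with smaller differences lose their call, such as 50 in both siRNA comparisons and 92 after auxin. With no depth minimum, WBP11 siRNA had 36 higher of 53 and a median difference of 19.2 points, and SNW1 siRNA a median of 21.5. Of all introns, 10.4% were then higher after WBP11 siRNA. With at least 20 observations, WBP11 siRNA had 4 of 10 and a median of 7.5, and auxin 13 of 19. All introns had 7.83% and 13.2% in those comparisons. With at least 50, WBP11 siRNA and auxin had 0 of 1, with differences of 2.30 and 1.19 points, and SNW1 siRNA had 9 of 15. All introns had 6.84% after WBP11 siRNA, 12.8% after auxin and 13.5% after SNW1 siRNA. Without introns with a warning, 9 of 16, 15 of 25 and 5 of 15 were higher, with medians of 15.3 points after SNW1 siRNA and 7.30 after auxin. All introns without a warning had 8.96%, 16.6% and 15.9%. Centred on the table median, the SNW1 siRNA median was 16.2, and from depth and spliced reads summed over the gene the difference was 21.0. Over only the introns tested in all tables, added after seeing the data, SNW1 siRNA had 17 of 22 and a median of 23.0, and auxin 16 of 22. All introns kept that way had 16.5% and 13.8%. Fewer introns enter the stricter settings by construction, and the cause of the other shifts was not tested. Depth limits introns 1 to 39 and all WBP11 siRNA values most. No paired analysis was possible because each group is 1 library.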
